A study of Mus musculus with 7 samples.

Results

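The linked troponin genes Tnni1 and Tnnt2 on chromosome 1, and Tnni2 and Tnnt3 on chromosome 7, were examined for binding of Six4 in C2C12 cells, a mouse myoblast line that forms myotubes when serum is lowered. Six4 is a DNA-binding homeodomain protein related to fly sine oculis. The series describes 7 libraries of chromatin immunoprecipitation with sequencing (ChIP-seq) and of its controls, from cells differentiated for 24 h, and the peak list of 1 of them was analysed here. It is the anti-Six4 library of the shNS line, the stable control hairpin line set against a Six4 knockdown line. Neither labels nor protocols say whether that line is 1 clone. Members were the peaks with a midpoint from 137650000 to 137790000 on chromosome 1, 140 kb here called the slow/cardiac window, or from 149600000 to 149710000 on chromosome 7, 110 kb here called the fast window. Positions are in the mm9 build. The windows held 11 and 8 peaks, 19 of the 58528 in the list. The list gives positions only, with no strength of binding, and there was no replicate. No p-value is therefore given, and intervals cover counting error within this library only. The knockdown, IgG, Flag and input libraries were not analysed here, so none of the 19 peaks was checked for loss with Six4 or for presence in a control.

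Troponin is the calcium switch of the thin filament in striated muscle. Troponin C binds calcium, troponin I holds back the actin and myosin interaction at rest, and troponin T ties the complex to tropomyosin. Each fibre type has its own versions: Tnni1 encodes the slow skeletal troponin I, Tnnt2 the cardiac troponin T, and Tnni2 and Tnnt3 the fast skeletal troponin I and T. Troponin I and T genes of mammals lie side by side in pairs, and embryonic muscle uses slow and cardiac versions before adult fibre types are set. Sine oculis homeobox proteins, Six4 among them, are known to bind MEF3 sites in muscle promoters and to act beside the MyoD family, whose members bind E-boxes.

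In the RefSeq gene order of GRCm38, Lad1, which encodes ladinin, a basement membrane protein, was the only gene listed between Tnni1 and Tnnt2. Phlda3 preceded Tnni1 and Pkp1, the gene of the desmosome protein plakophilin, followed Tnnt2. Between Tnni2 and Tnnt3 this order listed Lsp1, a gene of a leukocyte actin-binding protein, and Prr33, given there as a long noncoding RNA gene. Syt8 preceded Tnni2 and Mrpl23 followed Tnnt3. No annotation of mm9 was used here, so a peak is assigned below to a window and to no gene, exon, intron or promoter. A peak in either window may lie nearer to one of these other genes than to a troponin gene. No genome sequence of mm9 was used either, so peak sequences were not read.

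The promoter table held 2 starts each for Tnni1 and Tnnt2. Tnni2 and Tnnt3 had no entry. The 250 bases before the first listed start of each are shown to give the sequence at the head of the slow/cardiac pair, with E-boxes (CANNTG) in capitals. They come from RefSeq on GRCm38.p6, plus strand, at chr1:135799171-135799420 for Tnni1 and chr1:135836084-135836333 for Tnnt2. These positions belong to another build than the peaks and cannot be compared with them, and whether a peak covers either stretch was not determined.
Tnni1: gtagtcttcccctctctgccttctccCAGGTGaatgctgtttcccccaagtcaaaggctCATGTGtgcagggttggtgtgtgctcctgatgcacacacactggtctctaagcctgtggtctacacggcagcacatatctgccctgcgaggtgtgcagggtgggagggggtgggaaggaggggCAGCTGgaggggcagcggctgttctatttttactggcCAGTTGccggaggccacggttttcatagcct
Tnnt2: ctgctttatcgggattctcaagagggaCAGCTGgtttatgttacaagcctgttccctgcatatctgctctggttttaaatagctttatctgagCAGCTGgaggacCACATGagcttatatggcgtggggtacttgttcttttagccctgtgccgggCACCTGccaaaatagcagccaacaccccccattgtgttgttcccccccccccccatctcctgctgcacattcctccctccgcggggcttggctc

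In the full 300 bases of each entry, which run 50 bases past the start, both strands were searched for the E-box, for the MEF3 site in the form TCAGGTTNC and for the MEF2 site. The first Tnni1 entry held 4 E-boxes, at -224, -191, -68 and -31 relative to the start. At least 4 were present in 6.49% of all 32851 promoters. The first Tnnt2 entry held 5, of which 1 lay past the start, and at least 5 were present in 2.10% of promoters. The letters CAGCTG occurred once in the Tnni1 stretch, at -68, and at both -223 and -157 in the Tnnt2 stretch. The share of all promoters with CAGCTG is not given here, so whether these matches are unusual is not known. The second entries of Tnni1 (which overlaps the first) and Tnnt2 held 2 E-boxes each, as did Tnnt1, Tnnc1 and Tnnc2, and Tnni3 held 1. At least 1 E-box was present in 72.3% of promoters and at least 2 in 39.6%, so the E-box is a common motif at this length. None of the 8 troponin entries matched MEF3 or MEF2, which occurred in 1.21% and 3.19% of promoters. These counts describe letters in these windows only.

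Both windows were richer in anti-Six4 peaks than most of the genome, and by about the same factor. The slow/cardiac window had 7.86 peaks per 100 kb (exact Poisson 95% interval 3.92 to 14.1) and the fast window 7.27 (3.14 to 14.3). The whole list averaged 2.28 per 100 kb over the 2571 Mb that its peaks span. The windows thus held 3.45 and 3.19 times the average of the list, and 3.76 and 4.14 times that of their own chromosomes. Among 18354 windows of 140 kb laid end to end along the genome, 5.40% held at least 11 peaks, and on chromosome 1 alone 4.26% did. Among 23361 windows of 110 kb, 8.64% held at least 8 peaks, and on chromosome 7 alone 5.09% did. The median window held 2 peaks per 140 kb and 1 per 110 kb. The density of the slow/cardiac window over that of the fast window was 1.08 (exact binomial 95% interval 0.396 to 3.09). The counts do not separate the pairs by density, nor do they show that the pairs are alike.

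**Figure D1:**
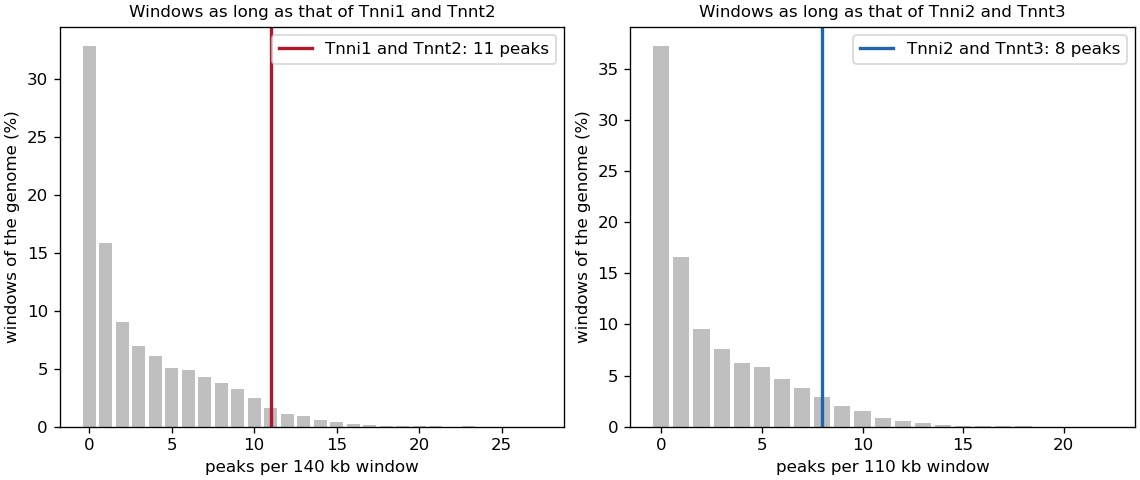
Share of end-to-end windows of the genome (y axis, percent) by the number of peaks they hold (x axis), for windows of 140 kb (left) and 110 kb (right). Grey bars are all windows, and the coloured lines mark the 11 peaks of the Tnni1 and Tnnt2 window and the 8 of the Tnni2 and Tnnt3 window, both in the thin right part of the distribution.

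In the slow/cardiac window the peaks formed 2 dense groups near its start and in its second part, with 1 peak alone between them. They are numbered S1 to S11 along the chromosome. S1 (137656354 to 137656594) was 241 bp wide and stood 6.50 kb from a peak just outside the window. S2 (137662211 to 137663456) was the widest of all 19 members at 1246 bp. S3 (137667442 to 137668028) was 587 bp wide. S2 and S3 were also the earliest of the 19 in the list, at lines 3051 and 3058. They were 3.98 kb apart, so these peaks lay near each other both on the chromosome and in the list. S4 (137675374 to 137676135, 762 bp) and S5 (137676935 to 137677266, 332 bp) closed the first group, 799 bp apart. The 5 peaks took up 20.9 kb and covered 15.1% of it.

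A stretch of 40.3 kb without a peak followed, then S6 (137717547 to 137717852, 306 bp), then another 26.4 kb without a peak. The second group began with S7 (137744279 to 137744808, 530 bp) and S8 (137747244 to 137747623, 380 bp). S9 (137752712 to 137753260, 549 bp) and S10 (137753664 to 137754138, 475 bp) came next and were the closest pair of the window, 403 bp apart. S11 (137762215 to 137762414) was the narrowest, at 200 bp. These 5 peaks took up 18.1 kb and covered 11.8% of it. After S11 no peak occurred for 60.2 kb, so the last 27.6 kb of the window were empty. Width is the length of the called region and is not known to measure strength in this list.

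In the fast window the peaks lay in the middle, with a pair toward the start and a single peak at the far edge. They are numbered F1 to F8. F1 (149614176 to 149614354) was 179 bp wide and the latest of the 19 members in the list, at line 50644. F2 (149616009 to 149616590), 1.65 kb further on, was 582 bp wide and the earliest of the fast window, at line 11559. A stretch of 40.2 kb without a peak followed, nearly as long as the longest in the slow/cardiac window. F3 (149656805 to 149657076, 272 bp) and F4 (149657307 to 149657605, 299 bp) were 230 bp apart, the closest of all members. F5 (149660709 to 149661331) was the widest of the fast window at 623 bp, and F6 (149662758 to 149663109) was 352 bp wide. F3 to F6 took up 6.30 kb and covered 24.5% of it. F7 (149673367 to 149673783, 417 bp) stood 10.3 kb beyond F6. F8 (149708353 to 149708519) was the narrowest of the 19 at 167 bp, close to the shortest width in the list of 165 bp.

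**Figure D2:**
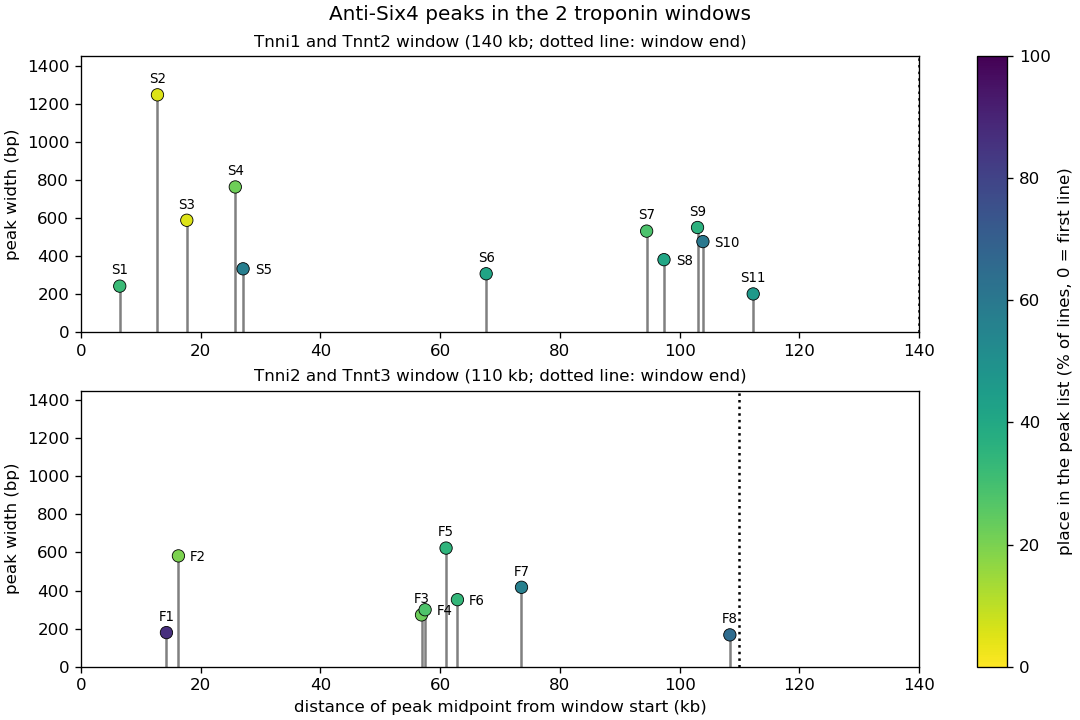
Position of each member peak as the distance of its midpoint from the window's start (x axis, kb) and its width (y axis, bp), with colour for its place in the list (yellow early, dark late). Lines drop from each point to the axis; S2 stands out at 1246 bp, and the groups S1 to S5, S7 to S11 and F3 to F6 are separated by empty stretches of up to 40.3 kb.

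Most peaks in both windows had a near neighbour, and long empty stretches lay between the groups. A neighbour with its midpoint within 10 kb was present for 10 of 11 peaks in the slow/cardiac window and 7 of 8 in the fast window, against 57.5% of the whole list. Peaks of a dense region have near neighbours more often, so these shares are not independent of the density. The same holds for the median gap below. With peaks grouped wherever gaps were at most 10 kb, 10 of the 11 slow/cardiac peaks and 0 of the 8 fast peaks belonged to groups of at least 5, against 12.4% of the list. The first slow/cardiac group counts 6 peaks when the peak just outside the window is included. The fast count turns on 1 gap, since F6 and F7 were 10.3 kb apart, just past the limit. It also turns on the group size, since 10 of 11 and 5 of 8 peaks belonged to groups of at least 4. A neighbour midpoint within 5 kb was present for 8 of 11 slow/cardiac and 7 of 8 fast peaks. The shares of the list at these 2 other limits are not given here. The median gap was 5.35 kb over 10 gaps in the slow/cardiac window and 3.10 kb over 7 gaps in the fast window, against 14.5 kb in the list. Gaps over 40 kb between members occurred once in each window, and such gaps made up 21.4% of the gaps in the list. Another in each reached in across an edge, 60.2 kb after S11 and 40.1 kb before F1. Gaps over 20 kb between members, 2 in each window, took up 47.6% of the slow/cardiac and 68.0% of the fast window. With the parts of such gaps that reach in across a window's edge, 3 gaps in each, the shares were 67.4% and 80.9%. The share of the whole list's span in gaps over 20 kb is not given here. Whether these shares are unusual, or differ between the pairs beyond counting error, is therefore not known.

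Peaks of the slow/cardiac window were wider by their median than those of the fast window, but the ranges overlapped broadly. Widths ran from 200 to 1246 bp with a median of 475 bp and quartiles of 319 and 568 bp in the slow/cardiac window. They ran from 167 to 623 bp with a median of 326 bp and quartiles of 249 and 458 bp in the fast window. The whole list had a median of 275 bp and quartiles of 204 and 454 bp. At these numbers an exact binomial interval of the median spans 241 to 762 bp for the slow/cardiac window and the full range for the fast window, so the medians are not told apart. Peaks at least as wide as the median of the list were 9 of 11 and 5 of 8, against 50.1% of the list. Peaks of at least 1 kb were 1 of 11 and 0 of 8, against 6.41% of the list. Peaks covered 4.01% of the slow/cardiac window and 2.63% of the fast window, compared with 0.915% of the span of the whole list.

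In the order of the list, the median member lay at 36.3% of the lines in the slow/cardiac window (exact binomial interval 5.22 to 57.8%) and at 34.5% in the fast window (19.7 to 86.5%, the full range). Both intervals include the middle of the list. The slow/cardiac peaks ran from 5.21 to 60.1% of the lines and the fast peaks from 19.7 to 86.5%. In the first 50% of lines lay 9 of the 11 slow/cardiac peaks and 5 of the 8 fast peaks, and in the first 10% lay 2 (S2 and S3) and 0. The quantity behind this order is not given in the sources used here. Earlier lines held wider peaks, with a Spearman's rho of -0.64 between place and width over all peaks and of -0.59 over the 19 members, a description of peaks from 1 library. Each width was therefore also set against the 500 lines on either side. Of the slow/cardiac peaks 8 of 11, and of the fast peaks 4 of 8, were wider than the median of such lines, as were 49.8% of all peaks. S10 was wider than 89.6% of its nearest lines, F7 than 87.8% and F5 than 85.9%. F8 was at the other end and wider than 5.99% of them. S2 and S3, near each other in the list, were wider than 79.7% and 31.1%.

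**Figure D3:**
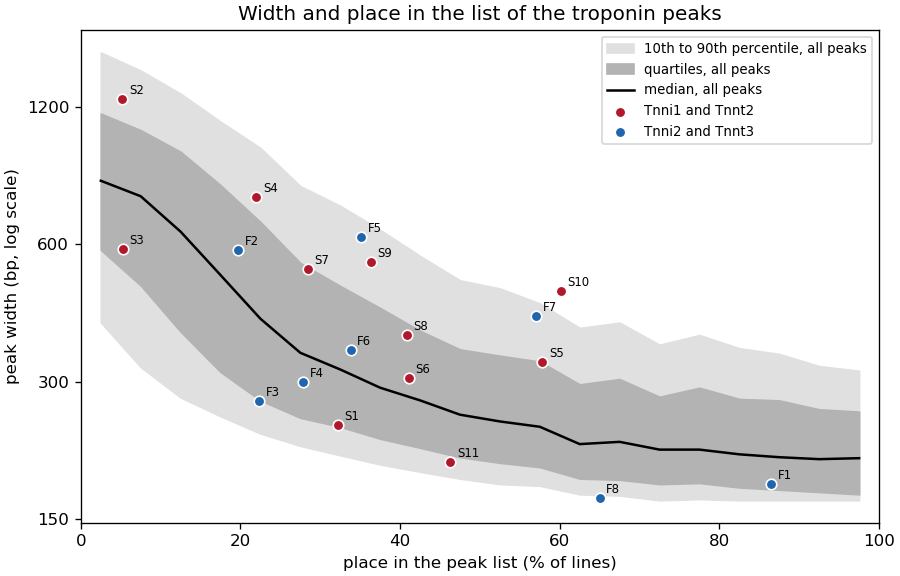
Width of each member peak (y axis, bp, log scale) against its place in the list (x axis, percent of lines), with the median, quartiles and 10th to 90th percentiles of all peaks in steps of 5% of lines. Red points (Tnni1 and Tnnt2) and blue points (Tnni2 and Tnnt3) overlap and mostly follow the fall in width along the list; S10 lies above the band and F8 below it.

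The flanks of the slow/cardiac window were denser in peaks than those of the fast window, by a ratio of 2.27 (exact binomial 95% interval 1.03 to 5.51). The interval treats peaks as independent, which makes it too narrow where peaks gather, and its lower end is already close to 1. Whether this ratio differs from that of the windows themselves was not tested. Stretches of the same length directly to the left and right of the slow/cardiac window held 17 and 9 peaks, or 12.1 and 6.43 per 100 kb. The density of the window over that of its flanks was 0.846 (exact binomial 95% interval 0.377 to 1.77), an interval that includes 1 around a value below it. The flanks of the fast window held 5 and 4 peaks, or 4.55 and 3.64 per 100 kb. There the density of the window over that of its flanks was 1.78 (0.597 to 5.19), an interval that includes 1. By their medians the fast window also held wider and earlier-listed peaks than its flanks, from few peaks on each side. The flanks' median widths were 221 and 200.5 bp to the left and right against 326 bp inside, and their median lines were at 77.3 and 48.3% against 34.5%. Around the slow/cardiac window the flanks had medians of 421 and 291 bp against 475 bp, and median lines at 27.4 and 46.1% against 36.3%.

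Over spans centred on each window, the interval of the ratio between the pairs included 1 up to 400 kb and lay above 1 from 1 Mb upward. In 200 kb there were 15 peaks around the slow/cardiac pair and 12 around the fast pair, a ratio of 1.25 (exact binomial 95% interval 0.546 to 2.92). In 400 kb there were 35 and 22, a ratio of 1.59 (0.907 to 2.85). In 1 Mb there were 92 and 34, a ratio of 2.71 (1.81 to 4.14). In 4 Mb there were 226 and 136, a ratio of 1.66 (1.34 to 2.07). The spans are nested and share peaks, and the intervals treat peaks as independent, which makes them too narrow where peaks gather. The slow/cardiac pair thus lay within a megabase of 9.20 peaks per 100 kb, above the average of 2.28 in the whole list. Windows of 1 Mb were not counted along the genome, so whether such a density is unusual is not known. Around the fast pair there were 7 peaks within 100 kb (exact Poisson 95% interval 2.81 to 14.4 per 100 kb). Within 1 Mb the density there was 3.40 per 100 kb, a value inside that interval.

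**Figure D4:**
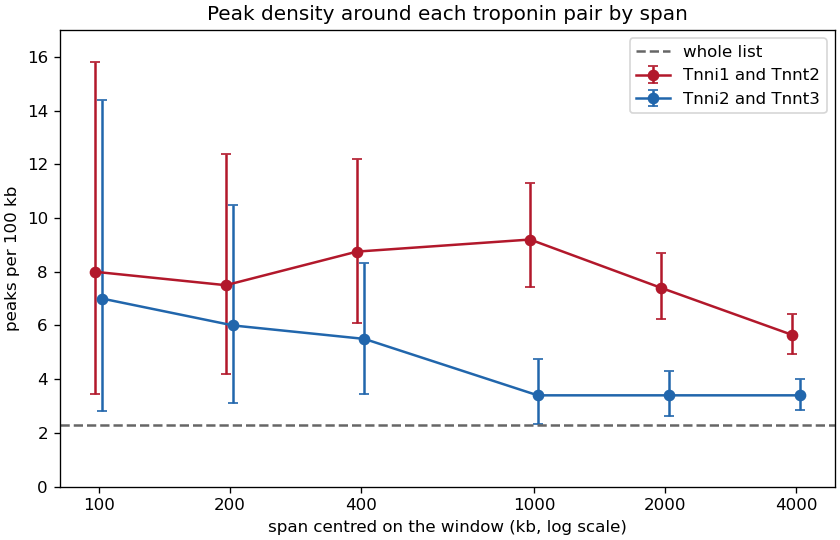
Peaks per 100 kb (y axis) in spans of 100 to 4000 kb centred on each window (x axis, log scale), with exact Poisson 95% intervals as bars and the average of the list as a dashed line. The curves lie within each other's intervals at 100 and 200 kb. At 400 kb each value lies outside the other's interval, though the intervals still overlap. At 1000 kb the intervals no longer overlap, with 9.20 around Tnni1 and Tnnt2 and 3.40 around Tnni2 and Tnnt3.

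The edges of the windows bear on these counts. The nearest peak left of the slow/cardiac window (137649465 to 137649851, 387 bp, line 9109) lay 0.343 kb outside it, and the nearest to the right (137822625 to 137822862, 238 bp) lay 32.7 kb outside. For the fast window the nearest peaks were 26.3 kb to the left (149573253 to 149574078, 826 bp) and 1.70 kb to the right (149711615 to 149711790, 176 bp). S1 was the member nearest to the left edge of its window, 6.47 kb inside, and F8 the nearest to the right edge of its own, 1.56 kb inside. F8 belonged to a group of 4 peaks that ran on beyond the window.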

How the data were processed

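Peak positions came from 1 library, anti-Six4 in the shNS line, as a list with 3 columns and no header deposited by the authors. The columns hold chromosome, start and end, and other values such as a score were not given in it. Per the submitters' processing notes, Bowtie, Picard, bedtools and MACS2 version 2.0 were used with the mm9 build; the sources used here do not state their roles, the threshold, the control library or the order of the list. The read depth is unknown. The other 6 libraries were not analysed here.

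Starts were counted from 0 in the list and are printed from 1. Peaks were assigned by midpoint. The members, the windows and the comparisons were chosen with earlier results of these data known. Every member peak is printed in full, the rule for named genes being the 4 members and their neighbours in the gene order. Equal windows were laid end to end from the first peak midpoint of each chromosome, without exclusion of assembly gaps. Intervals are exact Poisson for counts and exact conditional binomial for ratios, at 95%. Because peaks of 1 library are not replicates, no test was made. Counting in windows, the interval of the ratio and the motif search were tested on simulated data. The interval was simulated with independent counts, so how it behaves where peaks gather was not tested. Gene order and promoters came from RefSeq tables of GRCm38.p6, and no position was converted between builds. Values were computed in Python 3.11.15 (scipy 1.17.1, pandas 2.3.3, numpy 2.4.6) and drawn in matplotlib 3.10.9.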

Additional observations from a re-analysis of the deposited data

How the results depend on the processing

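The windows' counts, median widths, median lines, covered shares and density ratio were recomputed after merging peaks under 500 bp apart, with the first 50% of lines, with peaks at or above the median width, with membership by any overlap, and with windows shrunk or extended by 10 kb at both ends. Cutting both windows to the shorter length, cutting them to the span of their members and shifting the end-to-end windows by 0.5 of their length were added after seeing the data. Of 74 recomputed values, 72 stayed within 1.5 times (counts and shares) or within the interval of the reported value (medians and the ratio). These limits are wide at these numbers, and several values could not pass them. The interval of each fast median is the full range of its members, so any subset of them stays inside it. Cutting windows to the span of their members keeps every count and median. The 72 are therefore no measure of stability. The count in the fast window dropped from 8 to 5 with the first 50% of lines, and to 5 with peaks at or above the median width, while the slow/cardiac count was 9 in both. The density ratio of 1.08 ran from 0.975 with extended windows, the only one of 8 settings below 1, to 1.41 with the first 50% of lines or the wider peaks, each within its interval of 0.396 to 3.09. No paired analysis was possible because the list is a single library. The read depth is unknown, so the limit of detection is too.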
